A study of Homo sapiens with 9 samples.

Results

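The clustered replication-dependent histone genes are the genes of the histone clusters that supply the core histones H2A, H2B, H3 and H4 and the linker histone H1 for new chromatin. They were taken here as the protein-coding genes whose deposited symbol begins with HIST1H, HIST2H, HIST3H or HIST4H. This rule found 71 members among the 58735 genes of the table, of which 19951 are protein-coding. By class they are 6 H1, 17 H2A, 18 H2B, 15 H3 and 15 H4 genes. By cluster, 55 lie in HIST1 on chromosome 6, 12 in HIST2 and 3 in HIST3 on chromosome 1, and 1, HIST4H4, on chromosome 12.

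All samples came from KHM-5M, an established line of thyroid cancer cells. The cells were exposed for 24 h to DMSO, the solvent control, or to YK-4-279 at 0.3 μM or 1 μM. This small molecule is described as an inhibitor of ETS transcription factors. Each of the 3 groups has 3 libraries, and RNA was selected with poly-T beads before sequencing. The labels do not say that the 3 libraries of a group came from separate cultures, so p-values measure the spread between these libraries, which may be technical. Counts summed to 16903251 to 18238884 per library. A count of 0 therefore allows up to 3 counts, or 0.164 to 0.177 CPM, the count for each 1000000 of the library. This limit is for counting error alone. Among thyroid lineage markers, PAX8 had 2742 to 3660 counts in every library, whereas the thyroglobulin gene TG, TSHR and SLC5A5 had 0 to 4, and NKX2-1 and FOXE1 had at most 10 and 34. The summed level of the 6 thyroid markers was 167 to 178 CPM in DMSO and 162 to 179 CPM at 1 μM, and the 2 that could be tested, PAX8 and FOXE1, did not pass the test at either dose. KRT8, an epithelial keratin, had 22002 to 24344 counts. Of the same marker list, VIM, CDH2 and FN1 also had enough counts to be tested, whereas the epithelial CDH1 did not. In bulk RNA, a change in the share of cells that express a gene and a change in RNA per cell cannot be told apart.

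Most clustered histone genes are transcribed in S phase, when DNA is copied, and their mRNA normally ends in a conserved stem-loop in place of a poly(A) tail. The stem-loop is bound by SLBP, and the end is cut by a complex that includes the U7 small nuclear ribonucleoprotein. Some of these genes also give polyadenylated mRNA, which is made when transcription runs past the stem-loop to a poly(A) signal and which can be present outside S phase. With poly-T selection, mRNA that ends at the stem-loop is largely lost, so the counts describe mainly the RNA of these genes that carries or passes a poly(A) stretch.

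The stem-loops are shown because they are the element that normally ends these mRNAs and that the 5 classes share. A perfect one, with a stem of 6 base pairs and a loop of 4 bases, was found 23 to 63 bases after the stop codon in 61 of the 66 members that have a stop codon in GENCODE release 44 on hg38. These 61 used 5 sequences, given 5′ to 3′ on the gene's strand with the loop in capitals. The search asked for a stem that opens with GG and a loop that opens with TT, so these bases were set beforehand. The GGCCC forms were found in H4 genes and the GGCTC forms in the other 4 classes.
Form of 36 members (H1, H2A, H2B, H3): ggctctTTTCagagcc
Form of 10 members (H1, H2A, H2B, H3): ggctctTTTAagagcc
Form of 10 members (H4): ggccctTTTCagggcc
Form of 4 members (H4): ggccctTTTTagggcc
Form of 1 member (H2A): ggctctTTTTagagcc

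Many H2A and H2B genes lie head to head and share the stretch between their starts. Of 11 such pairs with starts less than 500 bases apart, 9 held the octamer ATTTGCAT, the site of OCT1 in H2B promoters, between the genes. A pair in which both genes rose at 1 μM and a pair in which neither passed the test are shown on the plus strand of hg38. Capitals mark the octamer, CCAAT (a site of NF-Y) and TATAAA, each on either strand, and overlapping copies run together. The stretch of HIST1H2BC and HIST1H2AC stops inside a TATAAA at its right end, so that copy is not marked. The RefSeq promoter windows of both genes hold it in full.
HIST1H2BC to HIST1H2AC, both higher at 1 μM, chr6:26123927-26124144: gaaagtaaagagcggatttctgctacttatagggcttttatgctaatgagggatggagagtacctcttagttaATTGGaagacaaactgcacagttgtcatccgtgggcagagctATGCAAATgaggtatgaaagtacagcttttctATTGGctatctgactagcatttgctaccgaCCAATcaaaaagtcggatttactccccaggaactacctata
HIST1H2BJ to HIST1H2AG, neither called, chr6:27132751-27133041: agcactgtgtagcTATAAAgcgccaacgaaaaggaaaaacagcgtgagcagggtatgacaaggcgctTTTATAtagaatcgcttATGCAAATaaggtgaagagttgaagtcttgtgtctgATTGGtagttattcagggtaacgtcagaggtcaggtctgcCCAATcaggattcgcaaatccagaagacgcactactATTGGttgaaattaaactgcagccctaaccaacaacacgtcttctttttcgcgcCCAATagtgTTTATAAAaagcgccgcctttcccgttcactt

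The promoters of HIST2H2BE and HIST1H1C, members of different classes that both rose at 1 μM, are shown from RefSeq (GRCh38.p14), from 250 bases before to 50 bases after the start on the gene's strand, with the same motifs in capitals. HIST1H1C has a CCAAT and neither the octamer nor TATAAA in this window.
HIST2H2BE, chr1:149886633-149886932: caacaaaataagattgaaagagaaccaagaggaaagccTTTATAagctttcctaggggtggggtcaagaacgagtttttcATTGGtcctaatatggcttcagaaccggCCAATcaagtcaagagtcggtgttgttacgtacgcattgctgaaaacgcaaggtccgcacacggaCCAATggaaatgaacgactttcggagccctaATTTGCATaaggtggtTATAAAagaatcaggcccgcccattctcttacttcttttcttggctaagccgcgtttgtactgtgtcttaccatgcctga
HIST1H1C, chr6:26056421-26056720: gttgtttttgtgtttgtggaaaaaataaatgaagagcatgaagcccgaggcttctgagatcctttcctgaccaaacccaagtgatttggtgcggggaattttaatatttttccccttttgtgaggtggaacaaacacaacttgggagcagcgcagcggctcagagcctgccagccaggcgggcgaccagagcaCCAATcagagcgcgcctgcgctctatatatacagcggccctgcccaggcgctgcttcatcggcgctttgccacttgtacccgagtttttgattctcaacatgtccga

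At 1 μM the clustered histone genes as a group stood higher than in DMSO, and at 0.3 μM they did not. Summed over all 71 members, the level was 151 to 172 CPM in the 3 DMSO libraries, 160 to 164 CPM at 0.3 μM and 258 to 274 CPM at 1 μM. The mean rose from 159 ± 10.7 (SD, n = 3) to 268 ± 8.68 CPM, a log2 ratio of 0.75, while the log2 ratio at 0.3 μM was 0.02. All 3 libraries at 1 μM lay above the other 6, and the DMSO and 0.3 μM libraries overlapped. With 3 libraries against 3, an exact permutation test of a sum cannot go below a two-sided p of 0.1, so no test is given for sums.

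**Figure D1:**
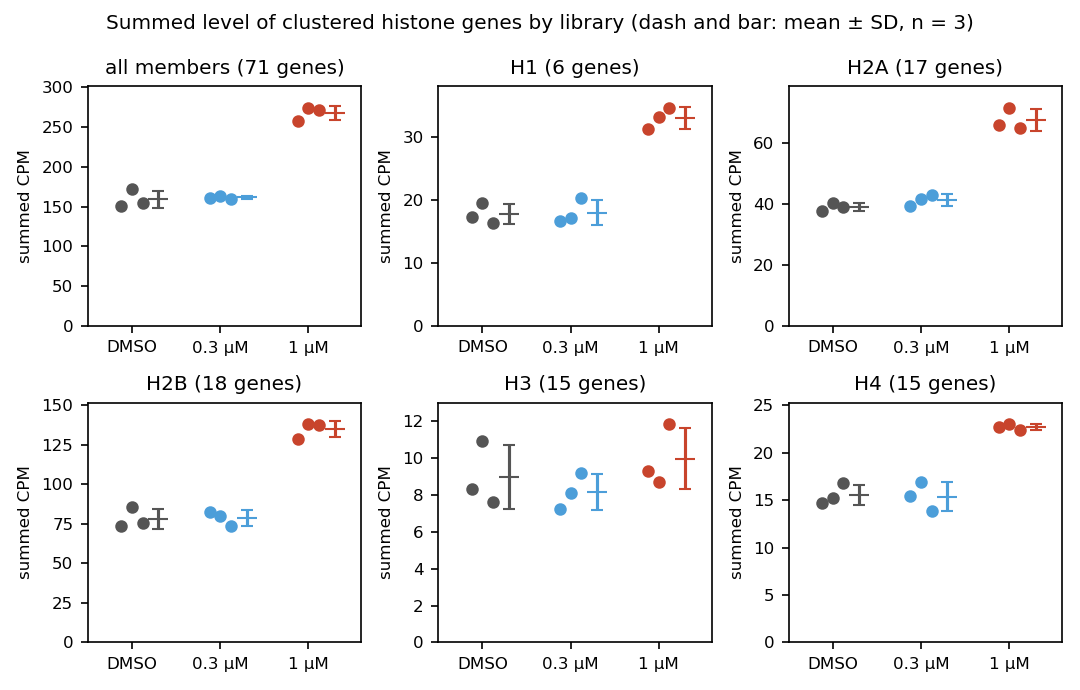
Summed CPM (library sizes scaled by TMM) of all 71 members and of each class on the y axis, by group on the x axis, with a point for each library and a dash and bar for the mean ± SD (n = 3). H1, H2A, H2B and H4 stood higher in all 3 libraries at 1 μM than in any other library, and the H3 sums of the 3 groups overlapped.

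The sums of 4 of the 5 classes stood higher at 1 μM. Summed H2B genes, the most abundant class, went from 78.2 ± 6.57 CPM in DMSO to 135 ± 5.17 CPM at 1 μM (log2 ratio 0.79). H2A went from 39.0 ± 1.39 to 67.4 ± 3.61 CPM (0.79), H1 from 17.7 ± 1.58 to 33.0 ± 1.68 CPM (0.90) and H4 from 15.6 ± 1.07 to 22.7 ± 0.28 CPM (0.54). The H1 difference lay in 1 gene, HIST1H1C, which went from 14.9 to 30.1 CPM, while the other 5 H1 genes summed to 2.33 to 3.12 CPM in DMSO and 2.29 to 3.91 CPM at 1 μM, which overlap (log2 ratio 0.05). For H3 the libraries were at 8.33, 10.9 and 7.62 CPM in DMSO and at 9.33, 8.72 and 11.8 CPM at 1 μM, which overlap (log2 ratio 0.15). As a share of all member counts, H3 was 4.91% to 6.36% in DMSO and 3.18% to 4.36% at 1 μM, and these ranges do not overlap, while H2B was 49.0% ± 0.79 and 50.4% ± 0.39 (SD, n = 3). The difference between classes was not tested.

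Most members gave few reads. Of the 71, 7 had no count in any library, 18 had 1 to 9 counts over the 9 libraries and 46 had 10 or more. A filter on low counts came before the tests, which were edgeR quasi-likelihood tests with Benjamini-Hochberg adjustment over all genes tested and a threshold of 0.05 on the adjusted p. The filter left 29 members at 1 μM against DMSO, 24 at 0.3 μM against DMSO and 30 at 1 μM against 0.3 μM. The 42 members not tested at 1 μM summed to 3.78 to 5.29 CPM in DMSO and 3.87 to 5.15 CPM at 1 μM, which overlap, and the 7 members at 0 included the testis genes HIST1H2AA and HIST1H2BA.

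At 1 μM against DMSO, 15 of the 29 tested members were higher and 0 were lower. Over all 15617 genes tested, 7.67% were called higher and 9.95% lower. In 17 of the 29 members every library at 1 μM lay above every DMSO library, against 18.9% of all genes. Members that pass the filter only through the treated group must differ, so the 18 members with all 3 DMSO libraries above the filter's level of 0.57 CPM were counted apart, and 10 of these 18 were called higher. The median log2 fold change was 0.79 over the 29 tested members and 0.44 over these 18, against -0.01 over all genes. With no filter it was 0.48 over members and -0.03 over all genes, and with DESeq2 0.47 and -0.04. By class, 1 of 3 H1, 2 of 6 H2A, 8 of 11 H2B, 0 of 4 H3 and 4 of 5 H4 genes tested were higher. Of the 15 called, 5 had fewer than 3 DMSO libraries at the filter's level, HIST1H2BE, HIST1H2BF, HIST1H4H, HIST1H4K and HIST4H4. Among the 18 counted apart, 6 of 8 H2B genes were called, and of the called H4 genes only HIST1H4I remained. Of the 15, 13 had a rise of over 1.5-fold.

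**Figure D2:**
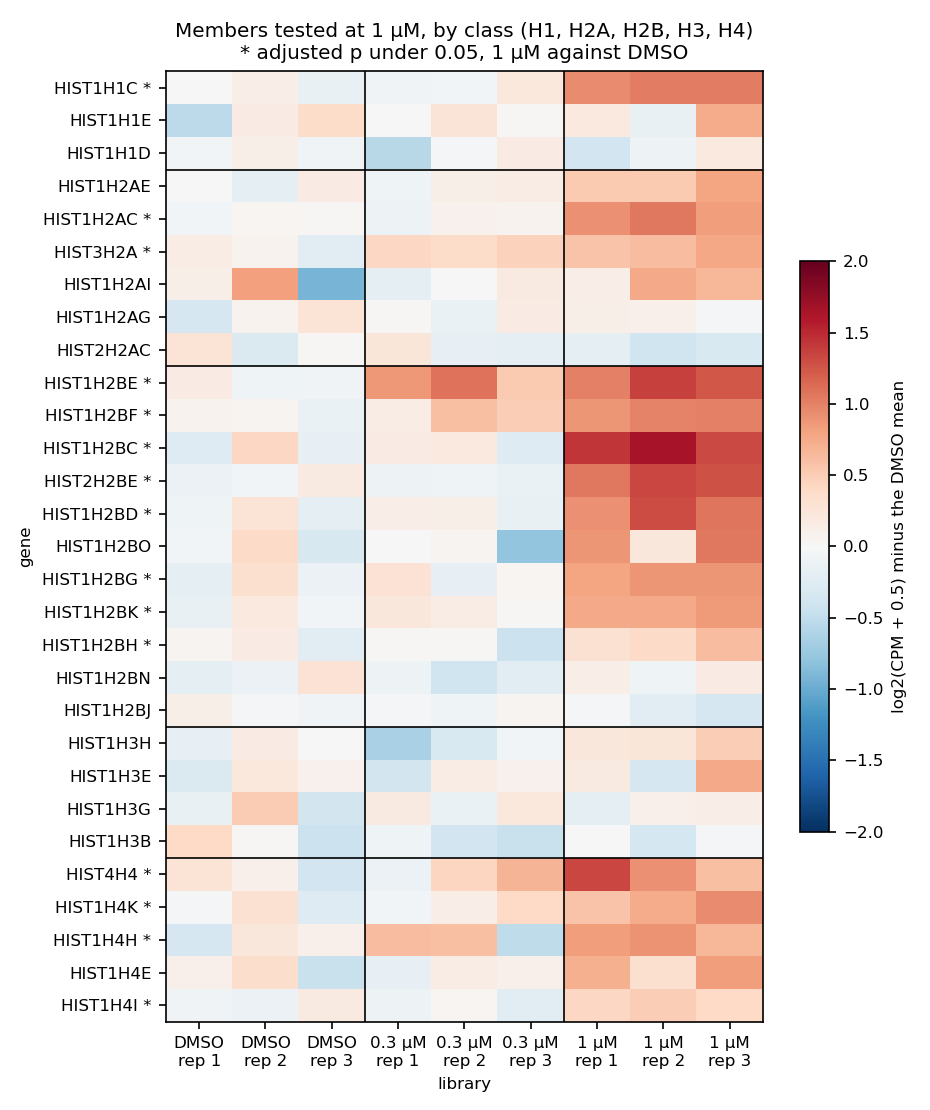
Each of the 29 members tested at 1 μM (rows, ordered by class) in each of the 9 libraries (columns), with colour for log2(CPM + 0.5) minus the mean of the 3 DMSO libraries, and an asterisk for an adjusted p under 0.05. The 15 asterisked rows are red in all 3 libraries at 1 μM, and 8 of them are H2B genes.

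A set of 6 genes was listed as known to give polyadenylated mRNA, 1 H1, 1 H2A and 4 H2B genes. It was listed with earlier results of these data known, so a count over it is not independent of them. At 1 μM 6 of 6 were called higher, where 7.67% of all genes tested were. HIST1H1C encodes the linker histone H1.2, which binds DNA where it enters and leaves the nucleosome. The gene lies at chr6:26055787-26056428 on the minus strand (GRCh38, as deposited). Its counts were 257, 293 and 227 in DMSO, 249, 257 and 300 at 0.3 μM, and 531, 530 and 519 at 1 μM. The 1 μM libraries stood apart from the other 6, and the log2 fold change was 1.01 ± 0.09 (SE, n = 3 per group, adjusted p = 1.71e-05, edgeR). HIST1H2AC, an H2A gene at chr6:26124145-26139116 on the plus strand, had 434, 483 and 454 counts in DMSO, 434, 502 and 482 at 0.3 μM, and 918, 954 and 797 at 1 μM. It was higher by a log2 of 0.94 ± 0.08 (adjusted p = 1.23e-05, edgeR), again with no overlap.

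The 4 H2B genes of this list encode near-identical forms of the histone that pairs with H2A. HIST1H2BK, the member with the highest FPKM in all 3 groups, had 436, 578 and 458 counts in DMSO, 584, 560 and 497 at 0.3 μM, and 877, 827 and 863 at 1 μM. Its rise was the smallest of the 6, at 0.79 ± 0.09 on the log2 scale (adjusted p = 6.50e-05, edgeR). HIST2H2BE, from the HIST2 cluster on chromosome 1, had 181, 198 and 223 counts in DMSO, 189, 195 and 181 at 0.3 μM, and 450, 519 and 482 at 1 μM, a log2 fold change of 1.25 ± 0.11 (adjusted p = 1.44e-05, edgeR). HIST1H2BD had 125, 170 and 116 counts in DMSO, 152, 153 and 121 at 0.3 μM, and 278, 345 and 287 at 1 μM (1.13 ± 0.14, adjusted p = 0.000164, edgeR). HIST1H2BC rose the most of the 6. It had 27, 50 and 29 counts in DMSO, 40, 42 and 27 at 0.3 μM, and 113, 125 and 96 at 1 μM (1.64 ± 0.22, adjusted p = 0.000292, edgeR). None of the 6 had a treated library at 1 μM that overlapped DMSO, and each was called in all 6 fits that leave out 1 library.

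Together these 6 genes made up 57.0% ± 0.76 of the member counts in DMSO, 57.9% ± 0.20 at 0.3 μM and 67.6% ± 1.65 at 1 μM (SD, n = 3). Their sum was 85.0, 98.7 and 89.0 CPM in DMSO, 93.0, 94.9 and 92.7 CPM at 0.3 μM, and 173, 191 and 180 CPM at 1 μM, a log2 ratio of 0.99 against DMSO. The other 65 members went from 66.1 to 72.9 CPM in DMSO to 83.8 to 91.4 CPM at 1 μM, which also do not overlap, with a log2 ratio of 0.34. Of these 65, 23 were tested and 9 were called higher, where 7.67% of all genes tested were. Of these 9, 5 had fewer than 3 DMSO libraries at the filter's level (HIST1H2BE, HIST1H2BF, HIST1H4H, HIST1H4K and HIST4H4). The difference between the list and the other members was not tested. Within the H2B class, the 14 genes off the list summed to 26.6 to 30.2 CPM in DMSO and 33.2 to 35.6 CPM at 1 μM (log2 ratio 0.28). Within H2A, the 16 off the list had a log2 ratio of 0.39. The list was written with earlier results of these data known.

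**Figure D3:**
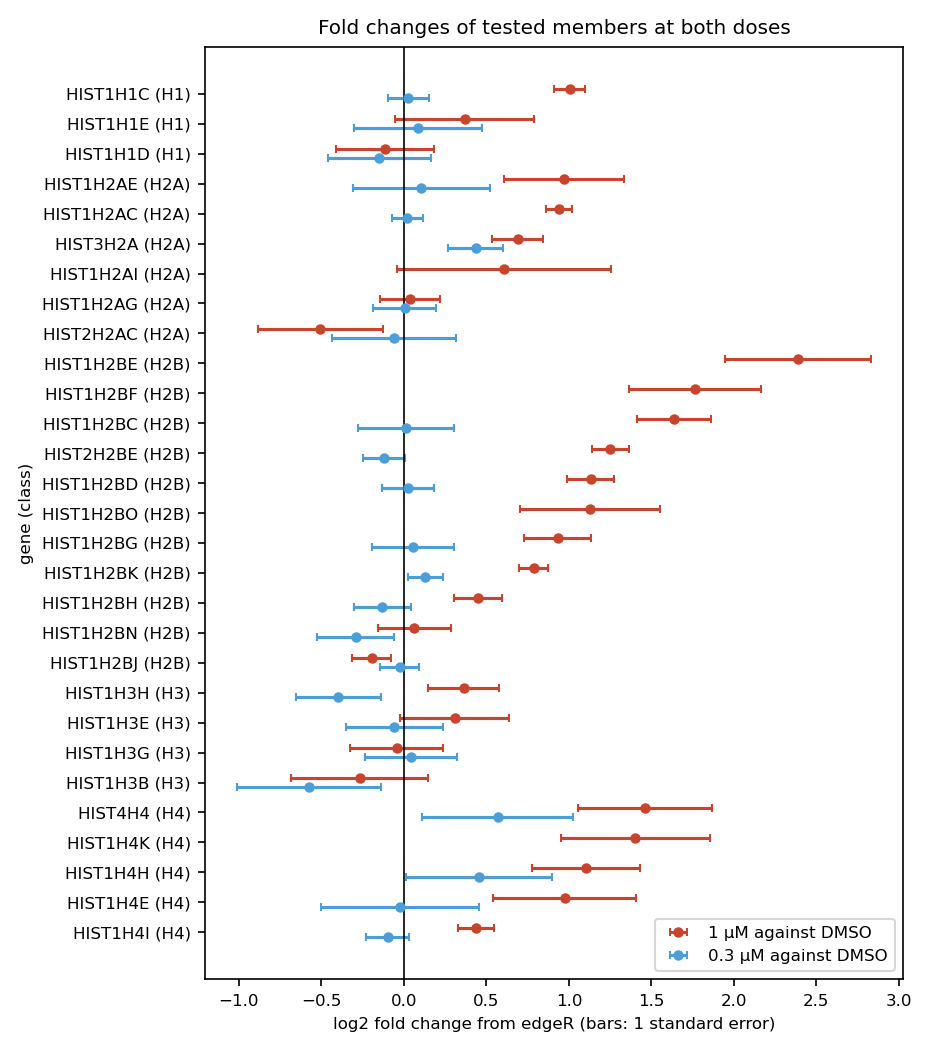
Log2 fold change (x axis, bars 1 SE) against DMSO of the tested members (y axis, with class), at 1 μM in red and at 0.3 μM in blue. The 0.3 μM values lie around 0, from -0.58 to 0.57, while at 1 μM they reach 2.39 in HIST1H2BE.

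Among the other H2B genes, HIST1H2BG rose from 39, 62 and 41 counts in DMSO to 91, 93 and 90 at 1 μM (0.93 ± 0.20, adjusted p = 0.00597, edgeR). HIST1H2BE had the largest fold change of all members, from 5, 3 and 3 counts to 17, 23 and 20 (2.39 ± 0.44, adjusted p = 0.00234, edgeR). Its 0.3 μM libraries, with 14, 18 and 9 counts, also lay above all DMSO libraries, but it did not pass the filter in that comparison. HIST1H2BF went from 6, 6 and 4 counts to 18, 19 and 19 (1.77 ± 0.40, adjusted p = 0.00800, edgeR). HIST1H2BE and HIST1H2BF had no DMSO library above the filter's level, so they were tested only through the treated libraries. HIST1H2BH moved least of the H2B genes called, from 123, 140 and 100 to 159, 159 and 183 counts (0.45 ± 0.15, adjusted p = 0.0482, edgeR). This call was lost without any of the libraries DMSO 1, DMSO 3, 1 μM 1, 1 μM 2 or 1 μM 3, with adjusted p up to 0.186. HIST1H2BD and HIST1H2BE overlap AL353759.1 on the other strand, and whether counting used strand is not given in the sources used here.

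HIST1H2BJ, the H2B gene with the second highest FPKM in DMSO, was not called. It had 245, 229 and 212 counts in DMSO, 227, 223 and 237 at 0.3 μM, and 238, 196 and 175 at 1 μM. The groups overlapped, and the 95% interval of its log2 fold change at 1 μM ran from -0.43 to 0.04 (adjusted p = 0.277, edgeR). It was the H2B gene with the lowest fold change. HIST1H2BN, at 46, 50 and 66 counts in DMSO and 63, 50 and 59 at 1 μM, overlapped as well (0.06 ± 0.22), and its reads may be shared with HIST1H2AL, which lies inside its model on the same strand. HIST1H2BO had 9, 16 and 6 counts in DMSO and 27, 13 and 29 at 1 μM (1.13 ± 0.43, adjusted p = 0.0831, edgeR).

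In the H2A class, HIST3H2A was the only gene beside HIST1H2AC to be called. It had 96, 95 and 71 counts in DMSO, 121, 118 and 122 at 0.3 μM, and 141, 137 and 150 at 1 μM, so that the 3 groups do not overlap. The log2 fold change was 0.69 ± 0.16 at 1 μM (adjusted p = 0.00768, edgeR) and 0.44 ± 0.17 at 0.3 μM (adjusted p = 0.995, edgeR). HIST1H2AE had 10, 8 and 12 counts in DMSO and 19, 18 and 23 at 1 μM, with no overlap, and missed the threshold (0.97 ± 0.36, adjusted p = 0.0802, edgeR). HIST2H2AC had the lowest value of all members tested, with 21, 12 and 16 counts in DMSO and 14, 10 and 11 at 1 μM, which overlap (-0.51 ± 0.38, adjusted p = 0.385, edgeR). HIST1H2AI, which shares 80.1% of its coding sequence in stretches of 100 bases with other members, had 9, 21 and 0 counts in DMSO and 10, 19 and 17 at 1 μM (0.61 ± 0.65).

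Of the 5 H4 genes tested, 4 were called, most at low counts. HIST1H4I, the H4 gene with the highest FPKM, had 195, 197 and 228 counts in DMSO, 196, 220 and 176 at 0.3 μM, and 292, 293 and 266 at 1 μM (0.44 ± 0.11, adjusted p = 0.0138, edgeR). Without 1 μM replicate 2 its adjusted p was 0.0592. HIST4H4, on chromosome 12, had 13, 11 and 5 counts in DMSO and 39, 25 and 18 at 1 μM (1.46 ± 0.41, adjusted p = 0.0231, edgeR). HIST1H4H had 9, 18 and 15 counts in DMSO and 33, 33 and 26 at 1 μM (1.11 ± 0.33, adjusted p = 0.0318, edgeR), and HIST1H4K 5, 9 and 3 and then 13, 15 and 18 (1.40 ± 0.45, adjusted p = 0.0465, edgeR). In all 3 of these the 1 μM libraries lay above DMSO, but fewer than 3 DMSO libraries reached the filter's level. HIST1H4H and HIST1H4K lost the call without any of DMSO 1, DMSO 3, 1 μM 1, 1 μM 2 or 1 μM 3 (adjusted p up to 0.119 and 0.174), and HIST4H4 without DMSO 3, 1 μM 1 or 1 μM 2 (up to 0.118). HIST1H4K shares 100% of its coding sequence, in stretches of 100 bases, with another member, so its reads could have been split or dropped, and its value is uncertain. HIST1H4D, the H4 gene with the second highest FPKM in DMSO, had 8, 4 and 7 counts there and 10, 8 and 11 at 1 μM, and was not tested in that comparison. The H4 gene tested and not called was HIST1H4E, at 10, 14 and 4 counts in DMSO and 21, 13 and 22 at 1 μM (0.97 ± 0.43, adjusted p = 0.138, edgeR).

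None of the 4 H3 genes tested passed at 1 μM against DMSO. HIST1H3H and HIST1H3B are the H3 genes with the highest FPKM. HIST1H3H had 40, 55 and 45 counts in DMSO, 27, 37 and 44 at 0.3 μM, and 59, 56 and 67 at 1 μM, which lie just above DMSO (0.36 ± 0.21, adjusted p = 0.265, edgeR). It was the H3 gene with the largest rise. HIST1H3B had 21, 15 and 8 counts in DMSO and 15, 9 and 13 at 1 μM, the lowest fold change of the class (-0.27 ± 0.42). The 95% intervals of the log2 fold change were -0.06 to 0.78 for HIST1H3H and -1.09 to 0.55 for HIST1H3B. They were -0.34 to 0.95 for HIST1H3E and -0.60 to 0.51 for HIST1H3G. The rise of 1.01 seen in HIST1H1C lay above all 4 intervals. The rise of 0.44 called in HIST1H4I lay inside all 4, as did the median of 0.45 over tested members off the polyadenylated list. That median includes the 5 called members with fewer than 3 DMSO libraries at the filter's level. Whether H3 genes differ from the other members was not tested. The 2 other H1 genes tested were HIST1H1D, at 27, 33 and 26 counts in DMSO and 21, 26 and 33 at 1 μM (-0.12 ± 0.30), and HIST1H1E (0.37 ± 0.42), and the groups overlapped in both.

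At 0.3 μM against DMSO, 0 of the 24 members tested were called in either direction by edgeR, as were 0 of all 15762 genes tested (0%). DESeq2 also called 0 members. At an unadjusted p under 0.05 there was 1 member, HIST3H2A, and 594 genes in all. It was also the 1 tested member whose 3 libraries all lay above DMSO, against 3.82% of all genes. The median log2 fold change was 0.01 over the tested members and 0.00 over all genes, and the 6 genes of the polyadenylated list ranged from -0.12 to 0.13. The 95% intervals at 0.3 μM ran from -0.21 to 0.27 for HIST1H1C, -0.17 to 0.21 for HIST1H2AC, -0.37 to 0.13 for HIST2H2BE and -0.07 to 0.33 for HIST1H2BK, so that the values of these 4 genes at 1 μM lay outside them.

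The direct comparison of the doses, 1 μM against 0.3 μM, shares its 1 μM libraries with the comparison above. In it 11 of 30 members were higher and 0 lower, against 5.85% and 6.75% of 15583 genes, and the median log2 fold change was 0.66 over members and 0.00 over all genes. Members that passed the filter only through the 1 μM libraries were not counted apart here. In HIST1H2BO, for example, the 0.3 μM library with 2 counts lay below the filter's level. With no filter or with DESeq2 the median over members was 0.38, against -0.01 and -0.02 over all genes. All 6 genes of the polyadenylated list were called, with log2 fold changes from 0.67 (HIST1H2BK) to 1.63 (HIST1H2BC). HIST1H2BO, at 10, 11 and 2 counts against 27, 13 and 29 (1.59 ± 0.48, adjusted p = 0.0379, edgeR), and HIST1H3H (0.77 ± 0.24, adjusted p = 0.0462, edgeR) were called here and not against DMSO. HIST3H2A was not (0.27 ± 0.14, adjusted p = 0.225, edgeR).

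Levels between genes can be compared only per length, in the authors' FPKM. The lengths are those of the deposited models, 381 bases in HIST1H2BK, which ends before its stem-loop, and 1668 in HIST1H2AC. In DMSO these genes made up 17.7% and 16.5% of the member counts, so the gap between them in FPKM depends on these lengths. In DMSO the order began with HIST1H2BK at 73.4 ± 9.14 FPKM (SD, n = 3), HIST1H1C at 23.0 ± 2.22 and HIST1H2AC at 15.6 ± 0.54, followed by HIST1H2BJ at 13.8 ± 0.99, HIST1H4I at 9.14 ± 1.04 and HIST1H2BD at 8.95 ± 1.59. HIST1H4I and HIST1H2BD did not differ beyond their spread, nor did HIST3H2A (5.57 ± 0.81) and HIST2H2BE (5.23 ± 0.64) below them. At 1 μM, HIST1H2BK was at 128 ± 4.97, HIST1H1C at 46.8 ± 1.59, HIST1H2AC at 30.4 ± 2.43 and HIST1H2BD at 19.9 ± 2.79, followed by HIST2H2BE at 12.6 ± 1.30, HIST1H4I at 12.5 ± 0.51 and HIST1H2BJ at 12.1 ± 1.38, which did not differ beyond their spread. The highest H3 gene, HIST1H3H, was at 2.15 ± 0.29 in DMSO and 2.80 ± 0.34 at 1 μM.

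Head-to-head pairs allow a gene to be set beside a neighbour across the same stretch of DNA. Of the 11 pairs, with 218 to 330 bases between starts, 9 had a member tested and 4 had both tested. Over all genes tested, 7.67% were called higher. The H2B gene was called in 5 pairs, and 1 of these genes, HIST1H2BF, was tested only through the treated libraries. The H2A gene was called in 2 pairs, and both genes were called in 1. That pair is HIST1H2AC and HIST1H2BC, whose shared sequence is printed above. In the HIST2 pair, HIST2H2BE rose by 1.25 while HIST2H2AC, across 322 bases, had a log2 fold change of -0.51 and overlapping groups. HIST1H2BK rose while HIST1H2AH on its other side had 0 to 5 counts in every library. Conversely, HIST3H2A rose and HIST3H2BB had 7, 17 and 8 counts in DMSO and 5, 8 and 6 at 1 μM. In the pair HIST1H2AG and HIST1H2BJ neither was called, and HIST1H2AG had 67, 96 and 106 counts in DMSO and 102, 95 and 83 at 1 μM (0.04 ± 0.18). In the pairs of HIST1H2BF and HIST1H2BK the H2A gene had too few counts to be tested, and the difference within pairs was not tested.

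**Figure D4:**
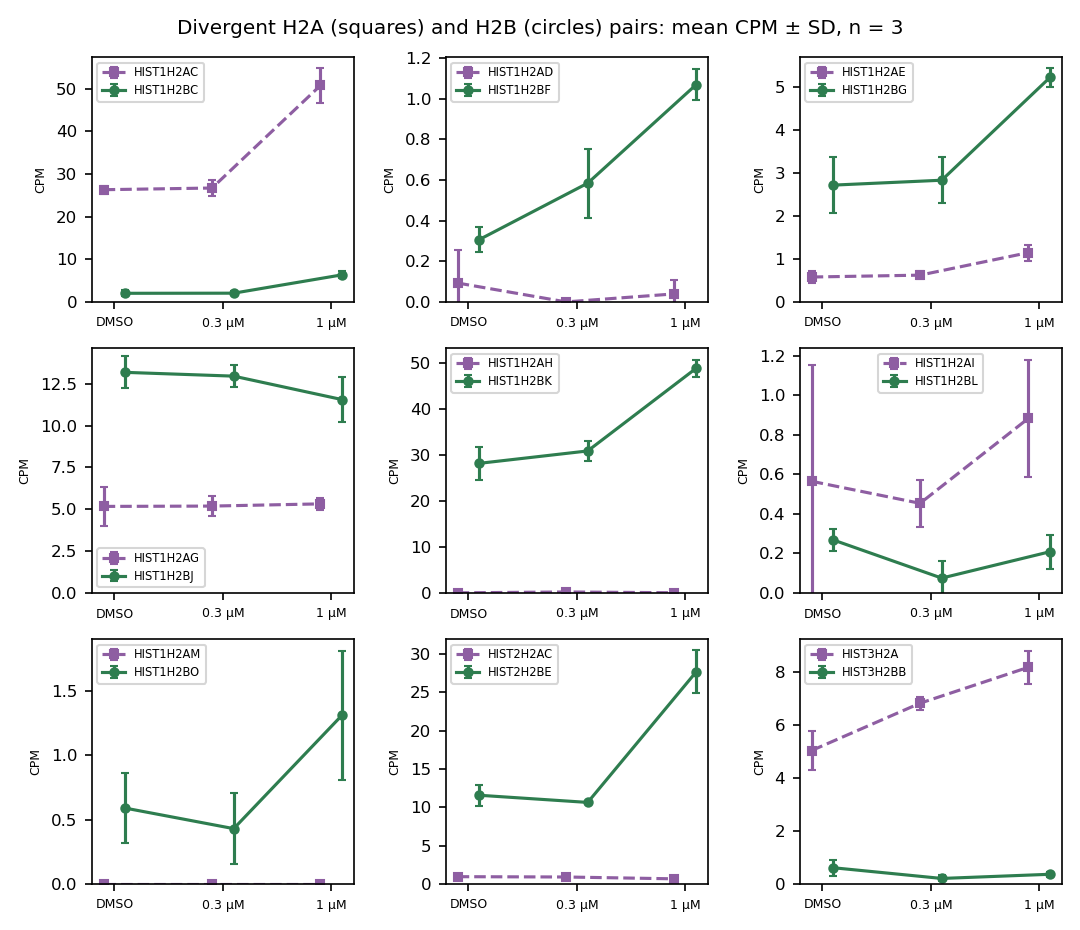
Mean CPM ± SD (n = 3, y axis) by group (x axis) for the 9 head-to-head pairs with a tested member, H2A genes as squares and H2B genes as circles, where levels of 2 genes are not per length and only each gene's course is to be read. HIST2H2BE is higher at 1 μM beside HIST2H2AC, whose groups overlap, as do those of HIST1H2AG and HIST1H2BJ.

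Promoter motifs were unevenly spread over the classes. The octamer ATTTGCAT was in 14 of 18 H2B and 11 of 16 H2A promoters, 1 of 13 H3, 0 of 6 H1 and 0 of 13 H4 promoters, against 1.80% of 27305 RefSeq promoters of the same length, on either strand. The H3 gene is HIST1H3D, whose RefSeq window is the same stretch as that of HIST1H2AD and is thus counted in both classes. Its RefSeq start lies 2043 bases from the deposited one, and the starts also differ by more than 500 bases in HIST1H2BE (11702), HIST1H2BN (809) and HIST1H4I (694). CCAAT was in all H1, H2A, H2B and H3 promoters and in 3 of 13 H4 promoters (35.7% of all promoters), and TATAAA in 44 of 66 (3264 of all 27305). CCGGAAG, a strong ETS site, was in 4 of 66 member promoters, HIST1H1E, HIST1H4I, HIST2H4A and HIST2H4B, against 10.7% of all, and no H2A, H2B or H3 promoter held it in this window. The shorter GGAA within it was in 62 of 66 member promoters, against 95.5% of all, so weaker ETS sites are not excluded. Among the 29 members tested at 1 μM, 8 of 13 with the octamer and 7 of 16 without it were called, where 7.67% of all genes tested were called higher. Among the 18 with all 3 DMSO libraries above the filter's level, the counts were 6 of 9 and 4 of 9. Within H2B the count was 7 of 9 with the octamer, HIST2H2BE among them, and 1 of 2 without it, HIST1H2BD, or 5 of 6 and 1 of 2 among those 18. With TATAAA, 9 of 20 were called, and 6 of 9 without it, or 6 of 12 and 4 of 6 among those 18. These differences were not tested.

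The gene models also differ at their ends. In 23 members the deposited model runs more than 100 bases past the stem-loop, in 32 it ends before it and in 6 it ends within 100 bases after it. Of the 17 tested with a long model, 12 were called at 1 μM, where 7.67% of all genes tested were called higher. Of the 9 tested without one, 3 were called, HIST1H1C, HIST1H2BK and HIST1H4K. Among the members with all 3 DMSO libraries above the filter's level, the counts were 8 of 12 and 2 of 4. A model that ends before the stem-loop counts no read beyond it. In HIST1H1C and HIST1H2BD an AATAAA, the usual poly(A) signal, lies 13 bases after the stem-loop. The distance is 746 bases in HIST1H2AC, 1130 in HIST1H2BC, 1553 in HIST1H2BK and 1706 in HIST2H2BE. It is 318 in HIST1H3H, not called at 1 μM against DMSO, and 161 in HIST1H4C, not tested there. The part of these features in the calls was not tested.

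Factors that make, cut, carry and degrade histone mRNA were followed beside the members. Of 20 genes of 3′ end processing tested at 1 μM, 0 rose and 2 fell. Over all genes tested, 7.67% were called higher and 9.95% lower, so the count of falls is near that share. SLBP, the stem-loop binding protein, had 1022, 1088 and 1114 counts in DMSO and 1310, 1041 and 1194 at 1 μM, which overlap (0.12 ± 0.08, adjusted p = 0.320, edgeR). CASP8AP2 (FLASH), which recruits the cutting complex, fell by 0.80 ± 0.13 on the log2 scale (adjusted p = 0.000977, edgeR), from 628, 676 and 579 to 338, 462 and 291 counts. LSM11, a U7 particle protein, fell by 0.36 ± 0.09 (adjusted p = 0.0145, edgeR), and LSM10 and ZNF473 did not pass the test (0.16 ± 0.09 and 0.04 ± 0.10). Of 16 genes of histone mRNA decay, 0 rose and TUT4 and DCP2 fell (-0.27 ± 0.07 and -0.21 ± 0.06), also near the share over all genes.

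Of 14 genes of histone gene transcription, E2F3 rose (0.29 ± 0.08) and CDK2 (-0.35 ± 0.06), E2F1 (-0.31 ± 0.09) and E2F2 (-0.38 ± 0.10) fell. Over all genes tested at 1 μM, 7.67% were called higher and 9.95% lower. NPAT, the coactivator of the histone clusters, had 349, 424 and 319 counts in DMSO and 409, 306 and 315 at 1 μM (-0.11 ± 0.11, adjusted p = 0.558, edgeR). HINFP, its partner at H4 promoters, was at -0.19 ± 0.10 (adjusted p = 0.211, edgeR). Of 25 histone chaperone genes, 2 rose, ASF1A (0.28 ± 0.09) and SUPT6H (0.25 ± 0.06), and 8 fell, among them the replication-coupled factors CHAF1A (-0.25 ± 0.08), CHAF1B (-0.36 ± 0.08), ASF1B (-0.27 ± 0.07), NASP (-0.24 ± 0.06) and MCM2 (-0.32 ± 0.06). The largest fall in that list was in ATRX, which helps to deposit H3.3 (-0.82 ± 0.15). At 0.3 μM, 0 genes of any of these lists were called by edgeR.

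Among 11 replication-independent histone variants tested, 3 rose and 1 fell at 1 μM, where 7.67% of all genes tested were called higher and 9.95% lower. H1F0, which encodes the linker histone H1.0, rose from 5440, 6016 and 5338 counts in DMSO to 10351, 11169 and 11047 at 1 μM, with no overlap (0.94 ± 0.06, adjusted p = 4.34e-06, edgeR). This is close in size to the rise of HIST1H1C. H1FX (0.41 ± 0.08) and H3F3B, which encodes H3.3 (0.24 ± 0.05), also rose, and CENPA, the centromeric H3, fell by 0.29 ± 0.07. H2AFZ did not pass (0.00 ± 0.06, adjusted p = 0.993, edgeR), and H2AFX was at -0.18 ± 0.09 (adjusted p = 0.173, edgeR).

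S phase genes moved the opposite way to the members. Of 41 tested, 0 rose and 32 fell at 1 μM, where 7.67% of all genes tested were called higher and 9.95% lower. The median log2 fold change of the 41 was -0.31. Their sum of 42 genes was 4089 to 4196 CPM in DMSO, 3588 to 4042 CPM at 0.3 μM and 3300 to 3460 CPM at 1 μM. CDC45, part of the replicative helicase, fell by 0.62 ± 0.07 (adjusted p = 6.74e-05, edgeR), and HELLS, a chromatin remodeller, by 0.65 ± 0.09. The list also holds SLBP, CASP8AP2, MCM2, NASP and CHAF1B. Of 52 G2/M genes, 25 fell, among them CDK1 (-0.68 ± 0.07), and 3 rose, AURKA, CCNB1 and LBR. The part of these shifts in the histone values was not tested.

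**Figure D5:**
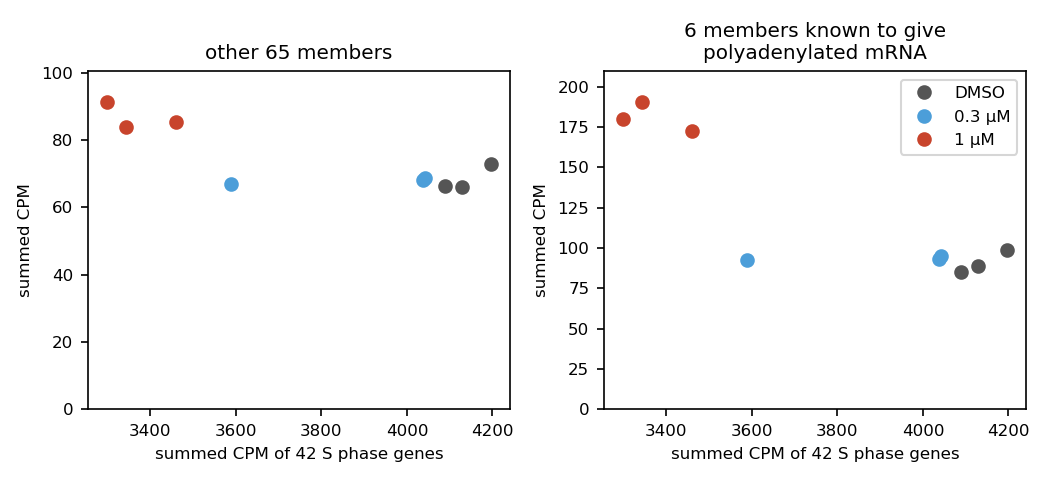
Summed CPM of 42 S phase genes (x axis, which does not start at 0) against the summed CPM of the other 65 members (left) and of the 6 polyadenylated-list members (right), with a point for each of the 9 libraries coloured by group. The 1 μM libraries lie at the low end of the S phase sum and the high end of both histone sums, and a 0.3 μM library with an S phase sum of 3588 CPM has histone sums like those of the other 0.3 μM libraries.

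RNAs that carry no poly(A) tail were also followed. Of 16 such genes only RN7SL2 had enough counts to be tested, and most of the others were at or near 0 in every library. RN7SL2 had 1513, 1692 and 1070 counts in DMSO, 1226, 1193 and 1073 at 0.3 μM, and 499, 704 and 1217 at 1 μM, and fell by 0.82 ± 0.24 (adjusted p = 0.0299, edgeR). The list summed to 63.8 to 94.8 CPM in DMSO, 62.4 to 69.8 CPM at 0.3 μM and 27.8 to 72.3 CPM at 1 μM. The ranges at 1 μM and in DMSO overlap, and the part of poly(A) selection in the histone values was not tested. The 4 testis-specific members stayed at 0.4 CPM or less in sum, and none was tested. Among epithelial and mesenchymal markers, 1 of 7 tested, FN1, rose (0.30 ± 0.08), where 7.67% of all genes tested were called higher. EPCAM, KRT8, KRT18, KRT19, VIM and CDH2 did not pass, and CDH1 had too few counts to be tested.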

How the data were processed

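RNA-seq counts and FPKM values were deposited for 9 libraries of KHM-5M cells, 3 in each of 3 groups. Per the methods, the authors used Hisat2 with GRCh38 for alignment and HTseq for counting, whereas the submitters' processing notes name HISAT2 2.0.5, featureCounts 1.5.0-p3 and DESeq2 1.20.0. The counts were deposited as whole numbers per gene without normalization. The FPKM values, deposited by the authors, divide the count by gene length and library size. The fold changes and p-values that the authors deposited from DESeq2 were not used. The methods state 2 biological replicates, the labels 3, and 3 were used. How strand and reads with several matches were treated is not given in the sources used here.

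Counts were tested with edgeR 4.0.16 in R 4.3.3 (filterByExpr with a minimum count of 10, TMM, glmQLFit and glmQLFTest, groups compared only, Benjamini-Hochberg over all genes tested). Summed and per-library CPM used TMM-scaled library sizes of all 9 libraries. Standard errors are those of the log2 fold change. Tables and figures used Python 3.11.15, pandas 2.3.3, numpy 2.4.6 and matplotlib 3.10.9. DESeq2 1.42.0, RLE size factors, no filter, a shared fit of the 9 libraries, a block for the replicate number and each library left out in turn were alternatives. The steps were tested on simulated data. Libraries within groups differed by more than sampling noise (genes with at least 20 counts, chi-square over its degrees of freedom of 3.20 to 10.7), so none was counted as a copy. Depth was 16903251 to 18238884 counts per library.

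Stem-loops and coding sequences came from GENCODE release 44 (hg38), where 66 of the 71 members matched, and promoters from RefSeq, where 66 matched. Stem-loops were sought within 150 bases after the stop codon, as 6-base perfect stems around 4 bases. The stem had to open with GG and the loop with TT. Of all members, 10 share more than 50% of their coding sequence, in stretches of 100 bases, with another member. The members and lists were chosen with earlier results of these data known. The thyroid marker list was planned with a further gene, which is not reported here. Named are members with an adjusted p under 0.05 in any comparison, the 2 with the highest FPKM in DMSO and the largest rise and fall at 1 μM in each class, the 6 of the polyadenylated list, 12 named processing, transcription and chaperone genes and up to 5 more genes of each list with the smallest p. Genes outside this rule (HIST1H1E, HIST1H2AG, HIST1H2AH, HIST1H2AI, HIST1H2BN, HIST1H3E, HIST1H3G, HIST1H4E, HIST3H2BB, H2AFZ, AURKA, CCNB1 and LBR) were named after their values were seen.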

Additional observations from a re-analysis of the deposited data

How the results depend on the processing

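At 1 μM against DMSO, 15 members were called higher and 0 lower. The count of higher calls was 15 with RLE size factors or no filter, 13 in a single fit of all 9 samples, 12 with DESeq2, and 10 to 16 when each library was left out in turn, with 0 lower in each. DESeq2 kept 12 of the 15 and lost HIST1H2BH, HIST1H4H and HIST1H4K, the last with no adjusted p. Each library left out in turn, 10 of the 15 were called every time. The median log2 fold change of the tested members, 0.79, was 0.48 with no filter and 0.47 with DESeq2, since both test more members of low count, and 0.71 to 0.93 over libraries left out. For 1 μM against 0.3 μM the median of 0.66 became 0.38 with no filter and 0.38 with DESeq2, and 0.61 to 0.78 over libraries left out, and the 11 higher calls became 8 to 11, or 17 at an unadjusted p under 0.05. At 0.3 μM against DMSO the 0 calls became 1 at an unadjusted p under 0.05. The log2 ratio of the summed CPM at 1 μM, 0.75, was 0.73 with total counts and 0.76 with summed FPKM, and 0.74 without HIST1H2BK.

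Replicate numbers are shared by the groups in the labels. Deviations of same-numbered libraries had correlations of -0.02 to 0.08, and those of differently numbered libraries -0.07 to 0.04. Between DMSO and 0.3 μM, same-numbered libraries had 0.08, 0.07 and 0.02, and differently numbered ones -0.07 to 0.01. Correlations this small do not settle whether the numbers pair the libraries. With the replicate block, 13 members were higher at 1 μM against DMSO (HIST1H2BH and HIST1H4K were lost), 11 at 1 μM against 0.3 μM and 0 at 0.3 μM against DMSO, and the medians were 0.79, 0.70 and 0.02. With libraries of 16903251 to 18238884 counts, the 42 members under the filter could not be tested.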

Other observations

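The table also lists 19 histone genes of the same clusters that are not protein-coding, 11 of them with a count. Their summed count was 395, 396 and 358 in DMSO, 375, 438 and 361 at 0.3 μM, and 346, 299 and 300 at 1 μM, so that the 1 μM libraries lay below all DMSO libraries, while the protein-coding members lay above. The 2 of these genes that passed the filter, HIST2H2BC and HIST2H2BD, held most of this count, which is not scaled for library size. The contrast with the protein-coding members thus rests mainly on these 2. HIST2H2BC, an H2B pseudogene, had 277, 285 and 264 counts in DMSO and 249, 195 and 211 at 1 μM and fell by 0.36 ± 0.10 on the log2 scale (adjusted p = 0.0298, edgeR). HIST2H2BD had 94, 85 and 74 counts in DMSO and 61, 66 and 73 at 1 μM (-0.36 ± 0.18, adjusted p = 0.201, edgeR). Pseudogenes of this kind can share reads with the genes they resemble.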
